A study of Mus musculus with 6 samples.

Results

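The C-type lectin genes described here are the 5 genes of a deposited FPKM table of 1228 genes whose symbols start with Clec: Clec7a, Clec4d, Clec4a3, Clec12a and Clec11a. GENCODE M21 lists 33 Clec genes in the mouse, and the other 28 are not analysed here. RNA was sequenced from Bv2, an immortalised mouse microglial cell line with the genotype given as WT, in 3 libraries of cells subjected to oxygen and glucose deprivation and reperfusion (OGD/R) and 3 libraries of control cells. OGD/R cells had 30 min in pure nitrogen, 2 h without glucose and serum at 1% oxygen and then 24 h in complete medium, a culture model of ischemia with reperfusion. The treatment text, which is the same for all 6 samples, also opens with an infection 72 h before, without naming an agent or saying which samples it concerns. The labels do not say whether replicates were grown as separate cultures, and p-values cover the spread among these libraries alone, which may be technical.

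C-type lectins are proteins with a fold that was first described in calcium-dependent binding of sugars. Many sit on myeloid cells, where some signal through activating tyrosine motifs and the kinase Syk and others carry inhibitory motifs that recruit phosphatases. In microglia Clec7a is best known as a gene of the activated state seen in mouse models of neurodegeneration. Clec11a differs from the other members, since it encodes a secreted growth factor and not a surface receptor, so the group is called the Clec genes below.

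Clec7a and Clec4d, both receptors that activate myeloid cells, were higher after OGD/R, and Clec4a3 was lower. Clec12a and Clec11a had lower values after OGD/R too but were close to the limit of what the libraries could count, and were not tested. Clec7a averaged 21.4 ± 2.75 FPKM in OGD/R and 5.49 ± 1.30 FPKM in control (SD, n = 3 each), Clec4d 80.4 ± 22.0 FPKM in OGD/R and 32.9 ± 11.4 FPKM in control, and Clec4a3 4.74 ± 0.503 FPKM in OGD/R and 9.94 ± 2.88 FPKM in control. In the bulk libraries, fewer cells expressing a gene and less of its RNA per cell cannot be told apart.

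The table limits what these differences show. The smallest difference in it was a ratio of means of 2.04 for the 605 genes higher in OGD/R and of 0.51 for the 623 lower ones, so its genes had been picked for a difference of about this size on the same libraries. Of 852 genes with a mean of at least 1 FPKM, 829 (97.3%) passed limma's test on log2(FPKM + 1) at an adjusted p under 0.05, with 397 (46.6%) higher and 432 (50.7%) lower in OGD/R. All 3 tested Clec genes passed, 2 higher and 1 lower, which is a share near that of the table. The adjusted p-values here cover only genes already picked on these libraries, so they do not give an error rate over all mouse genes. In 5 of 5 Clec genes the groups did not overlap, against 94.9% of the table. The OGD/R libraries were the higher in 2 of these and the lower in 3, against 48.4% and 46.5% of the table. The number of Clec genes higher in OGD/R was 2 of 5, where the table had 49.3%. Because low FPKM values come in steps of a counted unit, library sizes could be recovered, at 8034000 to 8662000 units in the OGD/R libraries and 7630000 to 8246000 in the control libraries, where a unit may be a read or a read pair. Spearman correlations over the table were 0.965 to 0.978 among OGD/R libraries, 0.959 to 0.971 among control libraries and 0.741 to 0.79 between the groups.

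**Figure D1:**
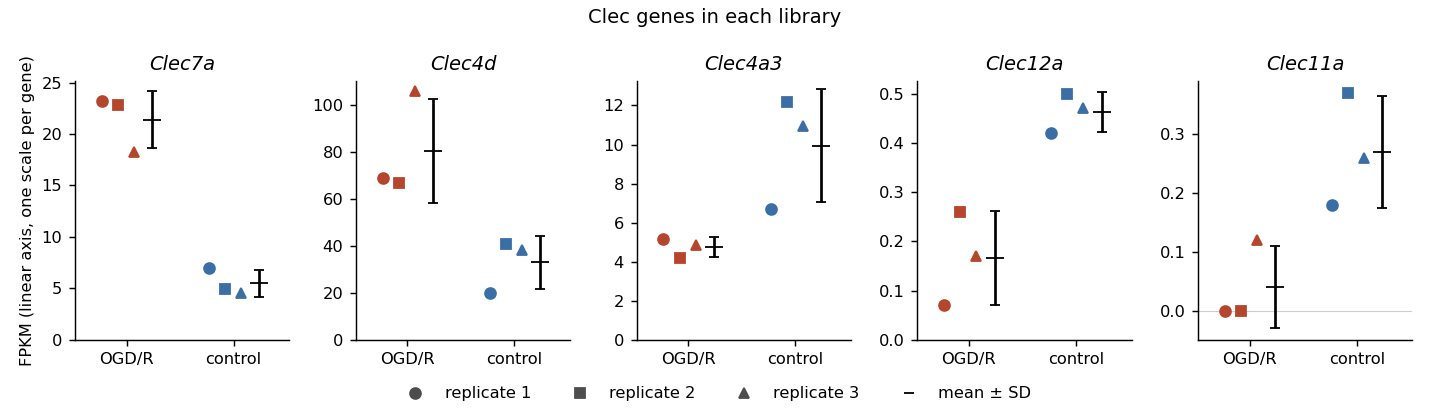
FPKM of the 5 Clec genes (linear vertical axes, a separate scale for each gene) in the 3 OGD/R and the 3 control libraries, with marker shapes for the replicate and black bars for the mean ± SD. Clec7a and Clec4d sit higher in all OGD/R libraries, and Clec4a3, Clec12a and Clec11a sit lower, with Clec11a listed at 0 in 2 OGD/R libraries.

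Clec7a encodes Dectin-1, the receptor for fungal beta-glucans, which signals through Syk and the adaptor Card9. The gene, ENSMUSG00000079293, lies on the minus strand of chromosome 6 of GRCm38, from 129461591 to 129472779, and GENCODE M21 gives it the biotype polymorphic pseudogene. Its values were 23.18, 22.79 and 18.24 FPKM in OGD/R libraries 1 to 3, against 6.97, 4.97 and 4.52 FPKM in control libraries 1 to 3. Replicate 3 was the lowest OGD/R library and replicate 1 the highest control library, and the groups did not overlap. The ratio of means was 3.90, and Clec7a rose with a log2 fold change of 1.80 ± 0.17 SE (limma, adjusted p = 0.000163). The values correspond to 491, 509 and 417 counted units in OGD/R and 141, 108 and 91 in control, and the ratio of summed units per library size had an exact conditional binomial 95% interval of 3.46 to 4.40, for counting error only. By ratio Clec7a stood at place 156 of the 1228 genes, and the mean level of 83.5% of the table was lower than its own.

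Clec4d encodes MCL, also called Dectin-3, a receptor for mycobacterial glycolipids that acts with the related receptor Mincle and the signalling chain FcR-gamma. The gene, ENSMUSG00000030144, lies on the plus strand of chromosome 6 from 123262111 to 123275265. It had 68.69, 66.77 and 105.88 FPKM in OGD/R libraries 1 to 3, against 19.82, 40.81 and 38.13 FPKM in control libraries 1 to 3. The third OGD/R library was well above the other OGD/R libraries, control replicate 1 was at 0.502 of the mean of the other controls, and the groups did not overlap. Clec4d rose with a ratio of means of 2.44 and a log2 fold change of 1.30 ± 0.31 SE (limma, adjusted p = 0.00654). It was the most abundant Clec gene of the table in every library, with 96.0% of the table at a lower mean level. Its coefficient of variation was 27.4% in OGD/R and 34.7% in control, against 12.8% in OGD/R and 23.8% in control for Clec7a.

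Clec4a3 belongs to the dendritic cell immunoreceptor (DCIR) group, tandem copies on mouse chromosome 6 that include inhibitory receptors. The gene, ENSMUSG00000043832, lies on the plus strand from 122952515 to 122969875, about 292 kb from Clec4d. It had 5.16, 4.18 and 4.87 FPKM in OGD/R libraries 1 to 3, against 6.68, 12.16 and 10.97 FPKM in control libraries 1 to 3. The OGD/R libraries were close together, while control replicate 1 lay nearer to them than to the other controls, without overlap. Clec4a3 fell, with a ratio of means of 0.477 and a log2 fold change of -0.90 ± 0.21 SE (limma, adjusted p = 0.00621). It had 55, 47 and 56 units in OGD/R and 68, 133 and 111 in control. None of the 1326 stretches of 50 nt in its GENCODE transcripts occurred in transcripts of another gene, and the same held for Clec7a, Clec4d and Clec11a. Reads with mismatches or short of that length could still be split among close copies.

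Clec12a encodes MICL, an inhibitory receptor that recognises uric acid crystals. The gene, ENSMUSG00000053063, lies on the plus strand of chromosome 6 from 129342691 to 129365303, about 96 kb from Clec7a. It was listed at 0.07, 0.26 and 0.17 FPKM in OGD/R libraries 1 to 3, against 0.42, 0.50 and 0.47 FPKM in control libraries 1 to 3. These are 3, 12 and 8 units in OGD/R and 18, 23 and 20 in control, all controls above all OGD/R libraries. The ratio of means was 0.36, and the ratio of summed units per library size was 0.353 (exact conditional binomial 95% interval 0.208 to 0.578, counting error only). Because its mean was under 1 FPKM it was not tested. In limma with no minimum level its adjusted p was 0.00517, in a fit where 1179 of 1228 genes passed. In its transcripts 0.4% of the 50 nt stretches occurred in transcripts of other genes.

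Clec11a encodes osteolectin, also called stem cell growth factor, which promotes bone formation in mice. The gene, ENSMUSG00000004473, lies on the minus strand of chromosome 7 from 44302687 to 44306902. It was listed at 0, 0 and 0.12 FPKM in OGD/R libraries 1 to 3, against 0.18, 0.37 and 0.26 FPKM in control libraries 1 to 3. These are 0, 0 and 3 units in OGD/R, against 4, 9 and 6 units in control. The ratio of summed units per library size was 0.148 with an exact conditional binomial 95% interval of 0.028 to 0.502, for counting error only. It was not tested. In limma with no minimum level its adjusted p was 0.00955, in a fit where 1179 of 1228 genes passed. With so few units that value carries little. Without OGD/R replicate 3 the gene is listed at 0 in both OGD/R libraries left.

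As FPKM is per length, levels of the genes can be set side by side, with a limit. The length that fits the FPKM steps is that of all GENCODE exons of a gene, and which exons these cells used was not tested. In OGD/R the order was Clec4d, Clec7a, Clec4a3, Clec12a and Clec11a, and values of neighbours in this order overlapped only for Clec12a and Clec11a. In control Clec4a3 stood above Clec7a by its mean, at 9.94 ± 2.88 against 5.49 ± 1.30 FPKM (SD, n = 3), but the ranges of those 2 genes overlapped. Within a library, Clec7a was 4.49, 5.45 and 3.75 times Clec4a3 in OGD/R libraries 1 to 3, against 1.04, 0.409 and 0.412 times in control libraries 1 to 3. Clec4d was 13.3, 16.0 and 21.7 times Clec4a3 in OGD/R, against 2.97, 3.36 and 3.48 times in control. Clec7a and Clec4d were higher and Clec4a3 lower in all OGD/R libraries, so the ratios to Clec4a3 had to separate the groups. The ratio of Clec4d to Clec7a, which were both higher, overlapped between the groups, at 2.93 to 5.80 in OGD/R and 2.84 to 8.44 in control.

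Summed over the 5 genes, the level was 97.1, 94.0 and 129.28 FPKM in OGD/R libraries 1 to 3, against 34.07, 58.81 and 54.35 FPKM in control libraries 1 to 3. All OGD/R sums were above all control sums, with means of 107 ± 19.5 FPKM in OGD/R and 49.1 ± 13.2 FPKM in control (SD, n = 3). Clec4d supplied 70.7% to 81.9% of the sum in OGD/R and 58.2% to 70.2% in control. The share of Clec4a3 was 3.77% to 5.31% in OGD/R and 19.6% to 20.7% in control, a narrow range among controls whose sums ran from 34.07 to 58.81 FPKM. With the sum higher and Clec4a3 lower in all OGD/R libraries, its share had to be lower there. The share of Clec7a overlapped between the groups.

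**Figure D2:**
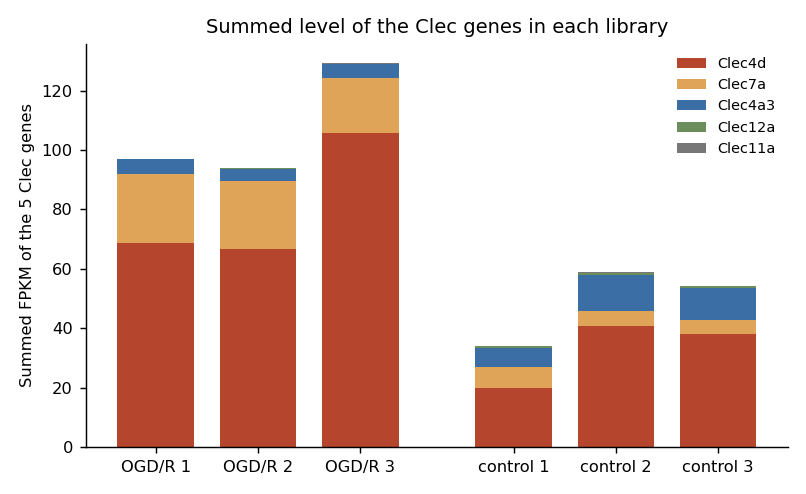
Summed FPKM of the 5 Clec genes (vertical axis, from 0) in each OGD/R and control library, with a colour for each gene. Clec4d makes up most of every bar, and the bars of the OGD/R libraries, at 94.0 to 129.28 FPKM, stand above those of the control libraries, at 34.07 to 58.81 FPKM.

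Part of the spread within groups ran along an axis shared by both groups. Over the tested genes other than the Clec genes, deviations from the group mean in control replicate 1 correlated at 0.428 and 0.449 with those of OGD/R replicates 1 and 2, and at -0.627 with those of OGD/R replicate 3. Deviations within a group are tied by their shared mean, so the negative value follows from the positive ones and is no separate observation. The same tie holds between control replicate 1 and the other controls. Clec4d was low, and Clec7a high, in control replicate 1 and in OGD/R replicates 1 and 2 relative to the other libraries of their groups. Among control replicate 1 and those 2 OGD/R libraries alone, the ratio of means was 3.298 for Clec7a, 3.42 for Clec4d and 0.699 for Clec4a3. Among OGD/R replicate 3 and control replicates 2 and 3 it was 3.84 for Clec7a, 2.68 for Clec4d and 0.421 for Clec4a3. The groups of these genes do not overlap, so the direction on each side was fixed by the full set of libraries, and each side rests on 1 library in an arm; only the sizes are new here. With the side as a factor in limma the log2 fold changes were 1.67 for Clec7a, 1.56 for Clec4d and -0.77 for Clec4a3, and since the sides were read from the spread of these same libraries, no p-value is given for that fit. What the axis stands for was not tested.

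**Figure D3:**
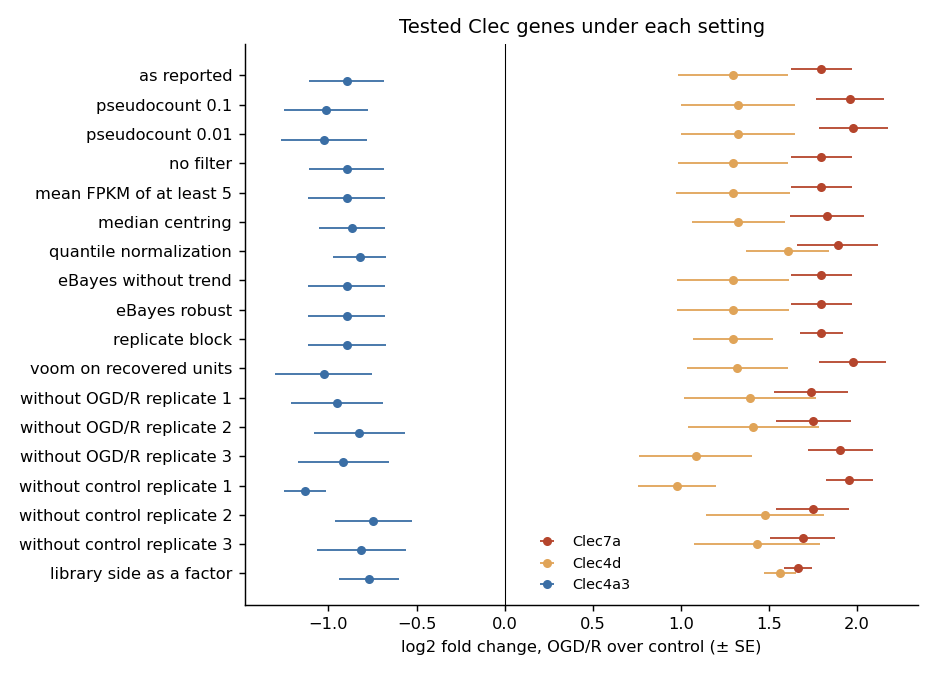
log2 fold change, OGD/R over control (horizontal axis, bars are ± SE from limma), of the 3 tested Clec genes as reported and under each of the 17 alternative settings. Clec7a stays between 1.67 and 1.98, Clec4d between 0.98 and 1.61 and Clec4a3 between -1.13 and -0.74. With library side as a factor the SE is not a measure of precision, since the sides were read from these same libraries.

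The promoters of the tested genes are shown because neighbours on a chromosome moved in opposite directions. Sequences are from RefSeq on GRCm38.p6, run 5′ to 3′ on the strand of the gene and cover 250 bases before and 50 after the annotated start. Capitals mark matches, on either strand, to GAGGAAG, a motif of the myeloid factor PU.1, to TGANTCA, bound by AP-1, and to TTNNNCAA, a loose C/EBP motif. The Clec7a promoter is chr6:129472730-129473029 on the minus strand, that of Clec4d chr6:123261857-123262156 and that of Clec4a3 chr6:122952265-122952564, both on the plus strand. Clec12a, at chr6:129349994-129350293 on the plus strand, is added because it held all 3 motifs.
Clec7a: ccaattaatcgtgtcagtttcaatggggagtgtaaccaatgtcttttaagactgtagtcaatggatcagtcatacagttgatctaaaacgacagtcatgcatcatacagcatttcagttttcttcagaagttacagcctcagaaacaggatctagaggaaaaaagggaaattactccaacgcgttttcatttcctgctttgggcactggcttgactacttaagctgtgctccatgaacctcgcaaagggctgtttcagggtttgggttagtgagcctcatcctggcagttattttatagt
Clec4d: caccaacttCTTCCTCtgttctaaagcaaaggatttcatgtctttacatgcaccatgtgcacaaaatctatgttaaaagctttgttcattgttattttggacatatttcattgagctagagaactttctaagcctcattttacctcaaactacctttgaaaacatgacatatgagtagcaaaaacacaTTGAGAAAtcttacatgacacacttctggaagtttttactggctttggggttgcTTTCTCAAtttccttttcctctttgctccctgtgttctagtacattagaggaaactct
Clec4a3: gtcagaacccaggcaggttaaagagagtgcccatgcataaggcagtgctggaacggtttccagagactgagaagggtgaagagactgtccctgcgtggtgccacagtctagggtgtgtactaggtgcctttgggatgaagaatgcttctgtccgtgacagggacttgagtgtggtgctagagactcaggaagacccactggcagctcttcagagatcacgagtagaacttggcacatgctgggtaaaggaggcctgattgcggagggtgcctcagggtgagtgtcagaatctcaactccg
Clec12a: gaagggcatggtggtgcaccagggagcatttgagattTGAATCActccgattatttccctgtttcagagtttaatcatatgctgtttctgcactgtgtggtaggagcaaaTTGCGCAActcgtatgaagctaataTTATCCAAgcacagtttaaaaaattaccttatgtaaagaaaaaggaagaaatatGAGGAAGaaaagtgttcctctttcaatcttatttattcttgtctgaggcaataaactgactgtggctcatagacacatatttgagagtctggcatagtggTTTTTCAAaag

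None of the 3 motifs was in the window of Clec7a or Clec4a3, in either of the 2 RefSeq starts that each has. The window of Clec4d held GAGGAAG on the minus strand at 241 bases before the start, and TTNNNCAA at 62 and 8 bases before it. That of Clec12a held GAGGAAG at 61 and TGANTCA at 213 bases before the start. It also held TTNNNCAA at 140, where it reads the same way on both strands, and at 115 bases before the start, and once after it. The start that RefSeq gives for Clec12a lies inside the gene as GENCODE draws it. Among 32851 RefSeq mouse promoters of the same length, GAGGAAG was found in 13.6%, TGANTCA in 7.8% and TTNNNCAA in 36.7%. All 5 Clec genes had an entry, and the single match in the Clec11a window was TTNNNCAA at 157 bases before the start.

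Genes of the table within 1 Mb of a Clec gene on chromosome 6 also went both ways. C3ar1, the receptor for the complement fragment C3a, lies 96 kb from Clec4a3 and had 13.8, 15.2 and 13.56 FPKM in OGD/R libraries 1 to 3, against 33.76, 31.58 and 34.29 FPKM in control libraries. It fell with a log2 fold change of -1.17 ± 0.10 SE (limma, adjusted p = 0.000111). Olr1, the lectin-like receptor LOX-1 for oxidised low-density lipoprotein, lies 12 kb from Clec7a and had 1, 2 and 7 units in OGD/R libraries and 0 in every control library. Cd69, an early activation antigen with a C-type lectin domain, lies 67 kb from Clec12a and had 3, 0 and 7 units in OGD/R libraries, against 13, 13 and 9 units in control. Olr1 and Cd69 were too low to be tested. Gm26656, a long non-coding RNA gene, averaged 0.363 FPKM in OGD/R and 0.070 FPKM in control, also untested, and Itfg2 fell with a log2 fold change of -0.65 (limma, adjusted p = 0.000933).

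**Figure D4:**
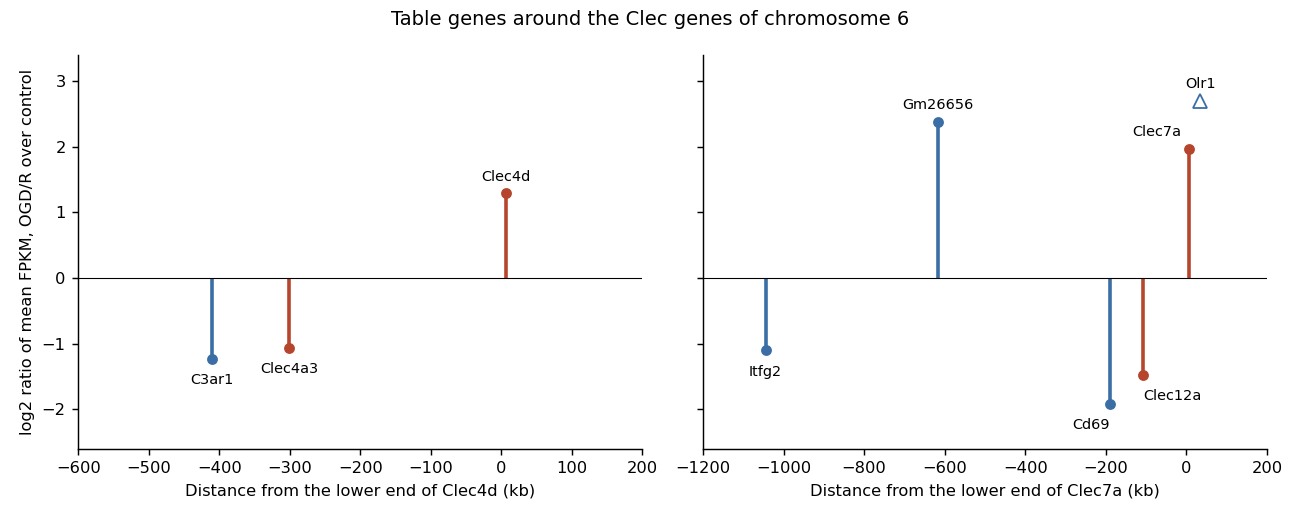
log2 ratio of mean FPKM, OGD/R over control (vertical axis), for the Clec genes of chromosome 6 (red) and other genes of the table within 1 Mb (blue), by distance in kb from Clec4d (left) and Clec7a (right). Clec4d stands above 0 with Clec4a3 and C3ar1 below it, and Clec7a above 0 with Clec12a and Cd69 below it; the open triangle marks Olr1, which is listed at 0 in all controls and has no ratio.

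Other genes with a C-type lectin domain were taken from a list, of which 73 are considered here; 6 of these were in the table and 4 were tested. Of these 4, 3 rose and 1 fell, where 46.6% of all tested genes rose and 50.7% fell. The median log2 fold change was 0.76 for the 4 genes and -0.68 for all tested genes, and in a table with no genes near 0 a median mainly restates which direction was the more frequent. Thbd, the anticoagulant receptor thrombomodulin, rose to 6.31 ± 0.530 FPKM in OGD/R, against 0.860 ± 0.248 FPKM in control (SD, n = 3; limma, log2 fold change 1.98, adjusted p = 7.87e-05). Selp, the adhesion receptor P-selectin, fell with a log2 fold change of -0.96, and Atrnl1, an attractin-like protein, rose with 0.88. The mannose receptor Mrc1 rose to 1.97 FPKM in OGD/R, against 0.890 FPKM in control (limma, adjusted p = 0.0153).

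**Figure D5:**
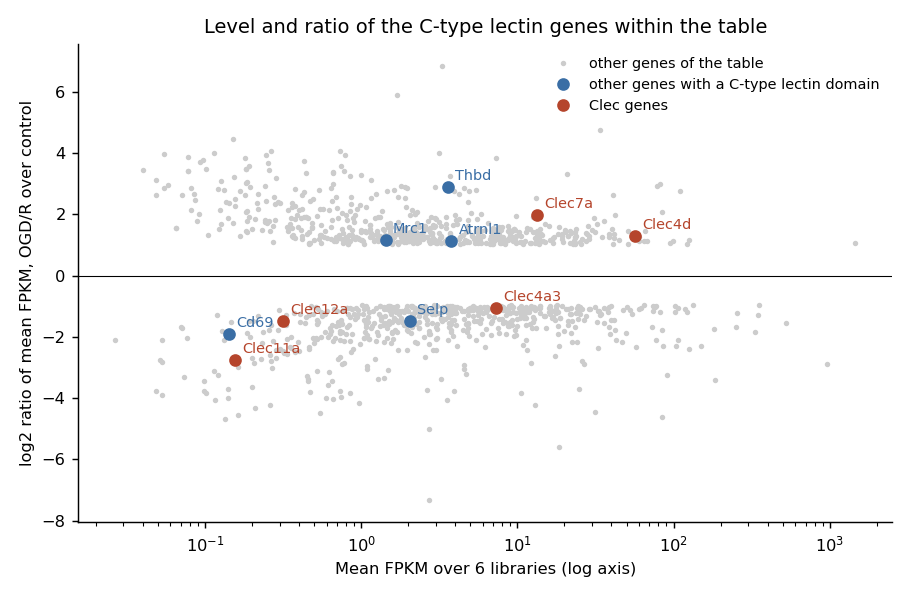
log2 ratio of mean FPKM, OGD/R over control (vertical axis), against the mean FPKM over the 6 libraries (log axis) for the 1184 genes of the table with a value above 0 in both groups. The gap around 0 shows that the table holds only genes picked for a difference; Clec4d and Clec7a lie among its more abundant genes and Clec12a and Clec11a among its least abundant.

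Signalling genes downstream of these receptors were mostly outside the table. Of 44 listed genes of the path from the receptors to NF-kB and NFAT, with those factors and their regulators, 2 were in it. Both fell, in a table where 97.3% of tested genes passed and 50.7% fell, and neither is a direct partner of the receptors. Rcan1, an inhibitor of calcineurin that NFAT induces, fell to 8.41 ± 0.713 FPKM in OGD/R, against 17.3 ± 2.51 FPKM in control (SD, n = 3; limma, adjusted p = 0.000625), and Relb, an NF-kB subunit, fell with a log2 fold change of -0.74 (adjusted p = 0.00125). The other 42, Syk and Card9 included, are not analysed here. Of 30 genes known to respond to Dectin-1 or related receptors, 11 were in the table and 7 tested, of which 5 rose and 2 fell, with a median of 0.99, where 46.6% of all tested genes rose and 50.7% fell. With no genes near 0 in the table, such a median carries little beyond the count. Cd83, found on the surface of mature dendritic cells, rose with a log2 fold change of 2.28 and Nr4a1, an immediate early nuclear receptor, with 2.16. Dusp5, a phosphatase of ERK kinases, rose with 1.41, while Ptgs2, which encodes cyclooxygenase-2, fell with -1.55 (limma, adjusted p = 0.000107, 7.62e-05, 0.000167 and 7.87e-05). The 4 untested members were all low, and went both ways. Il1b had 0.39, 0.93 and 0.67 FPKM in OGD/R libraries 1 to 3, against 0, 0 and 0.28 FPKM in control libraries, and Egr2 had 0.33, 0.24 and 0.41 FPKM in OGD/R, against 0.12, 0.11 and 0.04 FPKM in control. Il6 had 0.10, 0.34 and 0.10 FPKM in OGD/R, against 0.97, 1.45 and 1.57 FPKM in control, and Il23a had 0.17, 0.32 and 0.36 FPKM in OGD/R, against 0.93, 1.19 and 0.88 FPKM in control. These 4 were named after their values were seen.

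Among 50 other lectins and receptors of phagocytes, 5 were in the table, of which 2 rose and 3 fell, close to the shares of the table at 46.6% and 50.7%. Trem1, which amplifies inflammatory signals in myeloid cells, rose with a log2 fold change of 1.41, and Itgb2, the beta chain of leukocyte integrins, with 1.24. Fcgr1, the high-affinity receptor for immunoglobulin G, fell with -1.04 and C3ar1 is given above. Of 31 genes of disease-associated microglia, the state for which Clec7a is a marker, 2 were in the table, 1 higher and 1 lower. Cd52, a small surface glycoprotein, rose with 1.22 ± 0.40 SE and Csf1, a growth factor of macrophages, fell with -1.02 ± 0.11 SE (limma, adjusted p = 0.0222 and 0.000254). Of 40 myeloid transcription factors, 5 were in the table and 3 tested, of which 1 rose and 2 fell, against the same 46.6% and 50.7%. Atf3, a stress-induced factor, fell with a log2 fold change of -1.82, Klf4 fell with -1.48 and Mef2c, a factor of microglial identity, rose with 0.96.

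By root mean square difference of log2(FPKM + 1), each gene centred on its own mean over the 6 libraries, the profiles nearest to Clec7a were those of Tgm2 (0.0771) and Gas7 (0.10). Nearest to Clec4d were Hmgb2 (0.101) and Snrpd1 (0.118), and nearest to Clec4a3 were Rps3a2 (0.110) and Zfp513 (0.110). Hmgb2 had 66.47, 74.05 and 113.75 FPKM in OGD/R libraries 1 to 3 and 24.28, 43.45 and 39.03 FPKM in control libraries. Its order of libraries was that of Clec4d within control but not within OGD/R. The lowest OGD/R library was replicate 1 for Hmgb2 and replicate 2 for Clec4d. As Hmgb2 was picked for likeness over these libraries, such agreement is built in.

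Of 18 microglial markers 3 were in the table, at low levels. Cx3cr1 rose to 1.77 FPKM in OGD/R, against 0.373 FPKM in control, P2ry13 fell, and P2ry12 averaged 1.25 FPKM in OGD/R and 0.530 FPKM in control, untested. The remaining 15 are not analysed here, so the label of the cells could not be checked further. Of 61 markers of other cell types 6 were in the table and all had lower means in OGD/R, where 623 of the 1228 genes of the table did. Of these markers only Bglap2 and Vwf were high enough to be tested. The mast cell gene Cpa3 summed to 0 to 0.16 FPKM in OGD/R libraries and 0.43 to 1.12 FPKM in control libraries. The bone genes Bglap and Bglap2 together had 0.25 to 2.03 FPKM in OGD/R and 11.71 to 51.11 FPKM in control. The endothelial gene Vwf had 1.10 to 1.74 FPKM in OGD/R and 3.22 to 4.40 FPKM in control. The neuronal gene Tubb3 and the oligodendrocyte lineage gene Cspg4 stayed at or below 1.17 FPKM. The part of such markers in the values of the Clec genes was not tested.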

How the data were processed

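The deposited values are FPKM (fragments per kilobase of gene, scaled to library size) per the file headers, and the submitters' processing notes name GRCm38 as the build. The sources used here give no aligner, counter, annotation, strand setting or rule for choosing the genes. Labels' protocols give 1 ug of RNA per sample and paired reads of 150 nt. Genes were tested with limma 3.58.1 (R 4.3.3) on log2(FPKM + 1), which understates the change of low genes, where the mean was at least 1 FPKM, with a trended eBayes, group as the only factor, two-sided, Benjamini-Hochberg over all 852 tested genes and a threshold of 0.05. Exon lengths and positions came from GENCODE M21, which placed 1227 of 1228 IDs, and no gene there overlaps a Clec gene. Counted units were recovered from FPKM steps, with 96.9% to 99.6% of values under 15 units whole within rounding plus 0.03 units. Genes too long for the rounding were left out of that share, so the OGD/R values of Clec12a were not part of it. The recovery of units and the test were tried on simulated data. The Clec genes, lists and markers were chosen with earlier results of these data known. Named genes were the Clec genes, up to 4 called genes with the largest change in each list, the 2 nearest profiles of each tested Clec gene and table genes within 1 Mb. Python 3.11.15 with pandas 2.3.3, scipy 1.17.1 and matplotlib 3.10.9 served the rest. Alternatives covered the pseudocount, the minimum level, scaling, eBayes settings, a replicate block, voom on recovered units and each library left out; library side was added after seeing the data. A result for 1 listed gene is not reported here.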

Additional observations from a re-analysis of the deposited data

How the results depend on the processing

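Clec7a, Clec4d and Clec4a3 kept their direction in all 17 alternatives run, with log2 fold changes of 1.67 to 1.98, 0.98 to 1.61 and -1.13 to -0.74. Library side is left out of the p-values, since the sides were read from these same libraries. In the other settings these genes stayed past the threshold, with adjusted p of at most 0.00145, 0.0197 and 0.0248 in limma. Most of the table passed as well, at 829 of 852 tested genes as reported. As the groups do not overlap, leaving out libraries could not turn a direction. Without any 1 replicate the log2 fold changes were 1.69 to 1.96, 0.98 to 1.48 and -1.13 to -0.74. Differences of mean log2(FPKM + 1) were -0.33 for Clec12a and -0.29 for Clec11a, and became -1.14 and -1.48 with a pseudocount of 0.1 and -1.59 and -3.52 with 0.01, since a pseudocount of 1 shrinks low genes; without any 1 replicate they were -0.39 to -0.27 and -0.34 to -0.23. The number of genes past the threshold was 829, 789 to 829 without any 1 replicate, and 409 of 423 tested with a minimum of 5 FPKM, where fewer genes were tested. With the replicate block it was 835, and the block changed no call of a Clec gene (limma, adjusted p = 0.000885, 0.00421 and 0.0132 for Clec7a, Clec4d and Clec4a3). Deviations of libraries with the same number correlated at 0.428, -0.349 and 0.375. Deviations within a group are tied to each other by their shared mean, so these values do not settle whether the numbers pair libraries. The labels do not say either. Ratios of means without any 1 replicate were 3.59 to 4.51 for Clec7a, 2.04 to 2.78 for Clec4d, 0.41 to 0.537 for Clec4a3, 0.259 to 0.464 for Clec12a and 0 to 0.222 for Clec11a. Depth limits Clec12a and Clec11a, with 0 to 23 units per library.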

Other observations

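Around Clec11a on chromosome 7, 6 other genes of the table lay within 1 Mb. Atf5, a transcription factor of the stress response, fell to 14.8 ± 2.29 FPKM in OGD/R, against 35.2 ± 2.41 FPKM in control (SD, n = 3; limma, adjusted p = 0.000254). Rpl13a, a ribosomal protein gene with near-identical copies elsewhere in the genome and so uncertain, fell with a log2 fold change of -0.89. Acp4, the nearest at 45 kb, had 1.64, 1.42 and 2.05 FPKM in OGD/R libraries 1 to 3 and 1.57, 4.58 and 4.05 FPKM in control libraries, overlapped between the groups and did not pass the test (limma, adjusted p = 0.0785). Klk1b27 averaged 1.63 FPKM in OGD/R and 0.333 FPKM in control, Zfp473 1.12 FPKM in OGD/R and 0.307 FPKM in control, and Il4i1 0.290 FPKM in OGD/R and 0.693 FPKM in control, all 3 untested.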
